A study of Mus musculus with 9 samples.

Results

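The interferon regulatory factors (IRFs) are a family of transcription factors, and 7 of its genes, Irf1, Irf2, Irf3, Irf5, Irf7, Irf8 and Irf9, were followed here among the 55536 gene rows of each library. They were chosen by name, with no threshold on their values, but the family was picked when earlier results of these same libraries were known. Their differences between the groups, and the p-values beside them, are therefore a description and no independent support. All 7 passed the filter on low counts and had a count in every library.

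By the labels, the tissue was quadriceps of C57BL/6 mice after volumetric muscle loss, a surgical wound that takes out more muscle than can grow back. Of the 9 libraries, 5 were labelled Il17ra-/-, a knockout of a receptor subunit for interleukin-17 cytokines, and 4 were labelled WT, the wild type, so the comparison asks how IRF expression differs between libraries with these labels. Injury, strain, tissue and an age of 6 weeks were shared by both groups, and the labels disagree on the rest, naming both saline with a harvest 1 week after surgery and PCL with a collection 6 weeks after surgery. The design text speaks of triplicate animals, no label ties a library to an animal, a litter or a day, and p-values measure the spread between these libraries.

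IRF proteins share a DNA-binding domain that recognises repeats of GAAA, found in the promoters of interferons and of interferon-stimulated genes. IRF3 and IRF7 are latent factors that are phosphorylated after nucleic acid sensors or Toll-like receptors fire, and they switch on type I interferon genes. IRF9 is the DNA-binding subunit of ISGF3, the complex through which type I interferon acts on its target genes. IRF1 is made anew when interferon gamma or NF-kB signalling is active and drives chemokine, guanylate-binding protein and antigen-processing genes, while IRF2 competes with it for the same DNA elements. IRF5 and IRF8 are best known from myeloid cells and B cells.

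Total counts ran from 31294089 to 46435401 per library, and a count of 3 corresponded to 0.0646 to 0.0959 CPM. CPM sets a gene's count against the library's total, scaled to a fixed sum, and the values of genes also carry each library's TMM scaling factor. Il17ra, the targeted gene, had 200, 185, 181, 284 and 191 CPM in the libraries labelled Il17ra-/-, against 75.8, 107, 85.3 and 119 CPM in those labelled WT. No library labelled as the knockout had less Il17ra than one labelled WT, although the label names a knockout of this gene. Counts over the whole gene cannot show whether its alleles were disrupted, so they do not check the labels. Il17ra was called higher in the libraries labelled Il17ra-/- (log2 fold change 1.11, edgeR adjusted p = 0.00208), and under all 17 other settings. The directions that follow are those of the labels. They would reverse if the labels were exchanged, which was not tested. WT replicate 2 lay apart on the first principal component and Il17ra-/- replicate 1 on the second, and values without both are given for some genes. Of the 7 marker lists, that of fibroblasts had the largest sum, its 10 markers reaching 50367 to 69617 CPM in the libraries labelled Il17ra-/- and 60462 to 66399 CPM in those labelled WT. Of these only Pi16 was called, lower at a log2 fold change of -0.55 (edgeR adjusted p = 0.0207), and that call was lost under 4 of 17 other settings. A list of 11 muscle fibre markers summed to 3153 to 4158 CPM in the libraries labelled Il17ra-/- and 1105 to 2750 CPM in those labelled WT, with Tnnt1, Myh7, Myh2 and Acta1 called higher. The call of Acta1 (edgeR adjusted p = 0.0289) was lost under 6 of 17 other settings, with an adjusted p of up to 0.0803 without Il17ra-/- replicate 3. The muscle fibre sum lay below the fibroblast sum in every library, although the labels name quadriceps. How much of each cell type the samples held was not tested. The 8 endothelial markers summed to 302 to 379 CPM in the libraries labelled Il17ra-/- and 263 to 458 CPM in those labelled WT, most of it from Tek. None was called, and 7 of the 8 had a negative log2 fold change, among them Cldn5 at -2.61 (edgeR adjusted p = 0.154, DESeq2 adjusted p = 0.0314), whose groups did not overlap, and Pecam1 at -0.83 (adjusted p = 0.342).

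Irf1 was lower in the libraries labelled Il17ra-/- and had the highest mean TPM (transcript abundance per exon length) of the 7 genes in both groups, although Irf7 exceeded it in Il17ra-/- replicate 1, with 218 TPM against 128 TPM. The gene (ENSMUSG00000018899.16) is on the plus strand of chromosome 11 of GRCm38, from 53770014 to 53778374. It had 134, 212, 159, 156 and 213 CPM in the libraries labelled Il17ra-/-, against 563, 918, 594 and 523 CPM in those labelled WT. The groups were far apart, with no value in common, and the highest value stood in WT replicate 2. The means were 175 ± 35.7 CPM (SD, n = 5) in the libraries labelled Il17ra-/- and 649 ± 181 CPM (SD, n = 4) in those labelled WT. Irf1 fell by 1.89 on the log2 scale (SE 0.18, 95% confidence interval -2.29 to -1.50, edgeR adjusted p = 0.00015), which is 3.71-fold lower. Between 5274 and 27999 read pairs stood behind each value. The exons of Irf1 share 135 bp, 3.4% of their length, with Gm17334 on the other strand, which had at most 6.34 CPM. Without WT replicate 2 and Il17ra-/- replicate 1 the log2 fold change was -1.60. In bulk RNA, fewer cells of a type and less RNA per cell cannot be told apart. The muscle fibre marker sums given above also separated the groups, and their part in the Irf1 difference was not tested.

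Irf8, a factor that directs macrophage and dendritic cell development, was lower as well, at a level far below that of Irf1. The gene (ENSMUSG00000041515.10) is on the plus strand of chromosome 8, from 120736358 to 120756694. It had 4.81, 3.02, 3.49, 4.23 and 3.51 CPM in the libraries labelled Il17ra-/-, against 8.87, 15.1, 11.6 and 9.52 CPM in those labelled WT. The groups did not overlap, and WT replicate 2 was again the highest. Irf8 fell by 1.57 on the log2 scale (SE 0.22, 95% confidence interval -2.04 to -1.09, edgeR adjusted p = 0.00121), a 2.96-fold lower level. Without WT replicate 2 and Il17ra-/- replicate 1 its log2 fold change was -1.49. The counts behind these values were 142 to 189 read pairs in the libraries labelled Il17ra-/- and 324 to 462 in those labelled WT. No other annotated gene with counts shares exon bases with Irf8.

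Among markers of the blood cells in which Irf8 is usually studied, many were at or near 0 in both groups and some were detected. Ptprc, the pan-leukocyte marker CD45, had 0 to 0.461 CPM in the libraries labelled Il17ra-/- and 0 to 0.279 CPM in those labelled WT. Of 14 macrophage and monocyte markers, Ptprc, Itgam, Fcgr1 and Ly6c2 stayed below 0.5 CPM in every library, as did 9 of 11 markers of B, T and NK cells, all 7 neutrophil markers and the dendritic cell markers Itgax, Flt3, Xcr1, Cd209a and Siglech. Detected markers included Lyz2, with 4.85 to 9.98 CPM in the libraries labelled Il17ra-/- and 6.92 to 10.6 CPM in those labelled WT, and Cd14, with 2.75 to 6.32 CPM in the libraries labelled Il17ra-/- and 3.24 to 5.18 CPM in those labelled WT. Zbtb46 had 6.50 to 10.6 CPM in the libraries labelled Il17ra-/- and 3.64 to 9.50 CPM in those labelled WT, and Cd74 had 0.957 to 6.46 CPM in the libraries labelled Il17ra-/- and 0.391 to 2.71 CPM in those labelled WT. Clec9a had 0.319 to 1.14 CPM in the libraries labelled Il17ra-/- and 1.06 to 2.05 CPM in those labelled WT (log2 fold change -0.87, edgeR adjusted p = 0.457). Mrc1 had 0.999 to 1.73 CPM in the libraries labelled Il17ra-/- and 0.196 to 0.774 CPM in those labelled WT, without overlap (1.30, adjusted p = 0.285). None of Lyz2, Cd14, Zbtb46, Cd74, Clec9a and Mrc1 was called, and their part in the Irf8 difference was not tested. The summed level of the macrophage list was 15.1 to 23.5 CPM in the libraries labelled Il17ra-/- and 30.4 to 45.4 CPM in those labelled WT. Cd68, a lysosomal protein used as a macrophage marker, was called lower (log2 fold change -2.80, edgeR adjusted p = 2.17e-04) and accounted for this gap. With Cd68 left out, after its values were seen, the 13 other markers summed to 13.2 to 21.2 CPM in the libraries labelled Il17ra-/- and 14.7 to 21.2 CPM in those labelled WT. The dendritic cell list summed to 92.6 to 187 CPM in the libraries labelled Il17ra-/- and 105 to 187 CPM in those labelled WT. Most of that sum was Bst2, an interferon-stimulated gene that the ISGF3 list also holds, with 75.7 to 167 CPM in the libraries labelled Il17ra-/- and 94.0 to 176 CPM in those labelled WT. The B, T and NK cell list summed to 0.896 to 3.25 CPM in the libraries labelled Il17ra-/- and 0 to 2.13 CPM in those labelled WT, and the neutrophil list to 0 to 0.259 CPM in the libraries labelled Il17ra-/- and 0.131 to 0.745 CPM in those labelled WT. Spi1, which encodes the myeloid partner PU.1 of IRF8, did not exceed 0.236 CPM.

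Irf5, the other member known chiefly from myeloid cells, stood at a similarly low level and did not pass. The gene (ENSMUSG00000029771.12) is on chromosome 6 from 29526625 to 29541871, and 411 bp of its exons, 14.1% of their length, overlap exons of Tnpo3 on the opposite strand, where counting without strand cannot assign reads. It had 3.48, 4.00, 2.41, 1.54 and 2.12 CPM in the libraries labelled Il17ra-/-, against 3.78, 3.97, 3.99 and 2.78 CPM in those labelled WT. The groups overlapped, and the libraries labelled Il17ra-/- varied more among themselves. The log2 fold change was -0.42 with an interval of -1.13 to 0.29 (edgeR adjusted p = 0.575), so that a 2.19-fold lower level lies at the edge of what these libraries allow.

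**Figure D1:**
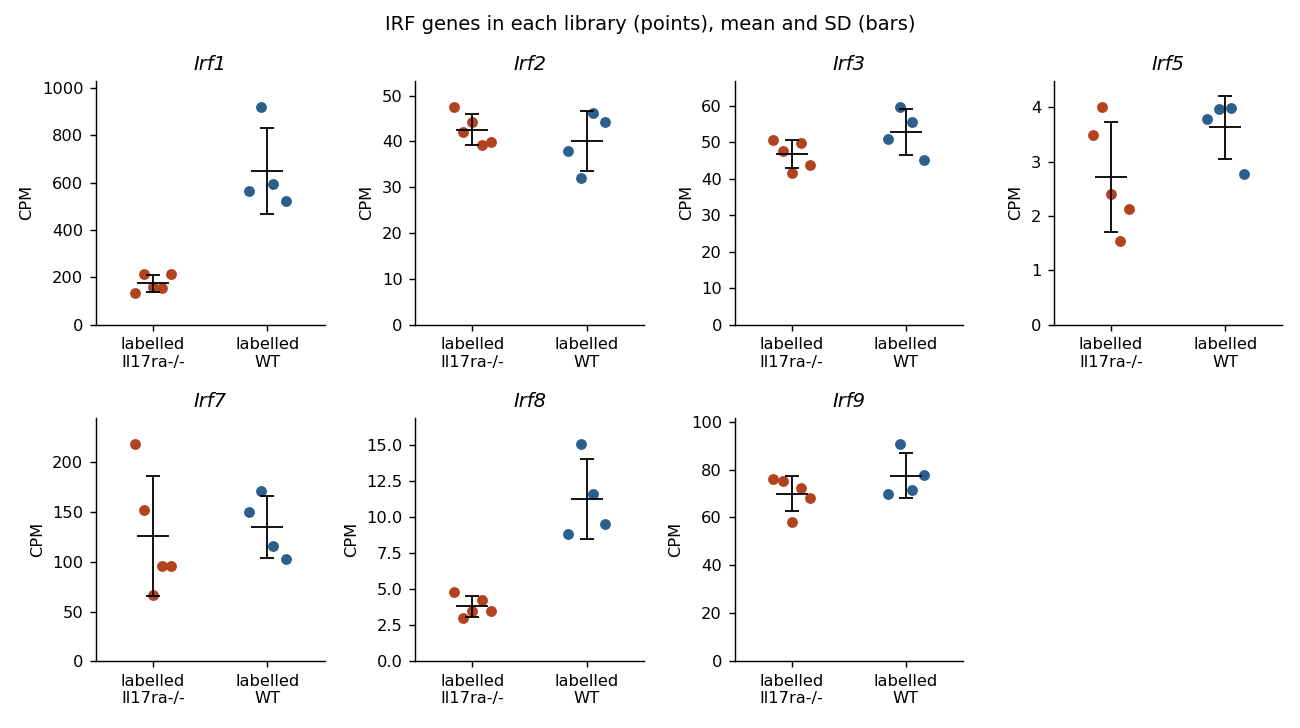
Library-scaled counts (CPM, linear axes from 0) of 7 IRF genes, with 1 point per library, the 5 libraries labelled Il17ra-/- left of the 4 labelled WT, and bars for mean and SD. For Irf1 and Irf8 every library labelled Il17ra-/- lies below every library labelled WT, while the points of the other 5 genes overlap.

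In all, 2 of the 7 genes were called at an adjusted p under 0.05, both lower. Without Il17ra-/- replicate 1 the count over all genes was 323, and without Il17ra-/- replicate 3 it was 275, against 491 with all libraries. Over the 16039 tested genes 3.06% were called, 1.71% lower and 1.35% higher, and the groups did not overlap in CPM for 9.16%. Of the 491 calls, 55.8% were lower, and 41.3% of calls were lower with scaling by library totals and no further factor, under which Irf1 and Irf8 kept log2 fold changes of -1.83 and -1.50. Because the family was picked with these results known, nothing is read from the share of members called.

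Promoter sequences are shown for Irf1 and Irf8, the members that fell, and for Irf2, the antagonist of Irf1, which did not pass. Each is the RefSeq window of GRCm38.p6 from 250 bases before to 50 after an annotated start, on the plus strand, and capitals mark matches to any of 3 motifs searched on both strands. The motifs were the IRF element (2 copies of GAAA with 2 bases between them), the GAS element bound by STAT dimers (TTCNNNGAA) and the NF-kB element.
Irf1, chr11:53769764-53770063: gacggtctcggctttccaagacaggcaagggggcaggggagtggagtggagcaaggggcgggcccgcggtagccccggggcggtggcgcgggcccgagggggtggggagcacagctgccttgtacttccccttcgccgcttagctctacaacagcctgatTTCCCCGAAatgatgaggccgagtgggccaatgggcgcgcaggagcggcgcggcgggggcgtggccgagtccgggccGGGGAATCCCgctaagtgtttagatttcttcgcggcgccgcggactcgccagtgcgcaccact
Irf8, chr8:120736108-120736407: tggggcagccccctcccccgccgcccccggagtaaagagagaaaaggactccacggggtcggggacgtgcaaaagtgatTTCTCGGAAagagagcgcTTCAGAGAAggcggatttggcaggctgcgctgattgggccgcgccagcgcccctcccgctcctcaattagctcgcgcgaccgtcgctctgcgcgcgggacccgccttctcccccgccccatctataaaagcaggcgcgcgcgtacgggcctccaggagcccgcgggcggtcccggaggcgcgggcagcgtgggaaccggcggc
Irf2, chr8:46739495-46739794: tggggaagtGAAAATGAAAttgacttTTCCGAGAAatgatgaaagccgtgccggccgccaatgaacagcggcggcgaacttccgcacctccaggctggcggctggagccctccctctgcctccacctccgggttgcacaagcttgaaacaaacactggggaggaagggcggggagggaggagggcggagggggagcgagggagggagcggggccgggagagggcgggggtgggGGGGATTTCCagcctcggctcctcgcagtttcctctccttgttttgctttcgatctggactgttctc

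The Irf1 window held 1 GAS match, whose first base lay at -90 from the start, and 1 NF-kB match at -13. The Irf8 window held 2 GAS matches, at -171 and -153, and no match to the other motifs. The Irf2 window held all 3 motifs, with the IRF element at -241, the GAS element at -224 and the NF-kB element at -17, so a match was present in members that fell and in one that did not pass. RefSeq windows matched all 7 genes, 10 windows in all, and the second windows of Irf1, Irf8 and Irf9 and the windows of Irf3, Irf5, Irf7 and Irf9 held none of the 3 motifs. Among all 32851 windows, 3.44% held the IRF element, 8.3% the GAS element and 4.51% the NF-kB element, which describes these letters and not binding.

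Irf2 was nearly level between the groups. The gene (ENSMUSG00000031627.9) is on chromosome 8 from 46739732 to 46847458. It had 47.5, 42.1, 44.2, 39.3 and 39.8 CPM in the libraries labelled Il17ra-/-, against 38.0, 32.0, 46.3 and 44.2 CPM in those labelled WT. The groups overlapped, with the lowest value in WT replicate 2, the library in which Irf1 was highest. The log2 fold change was 0.09 (95% confidence interval -0.18 to 0.36, edgeR adjusted p = 0.784).

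Set per length, the level of Irf1 relative to its competitor Irf2 differed between the groups. The ratio of their TPM within a library was 5.25, 9.36, 6.70, 7.39 and 9.95 in the libraries labelled Il17ra-/-, against 27.6, 53.4, 23.9 and 22.0 in those labelled WT. The ranges did not overlap, which restates the Irf1 difference, as Irf2 was nearly level. The ratio of 53.4 belonged to WT replicate 2, the library with the highest Irf1 and the lowest Irf2. Irf1 made up 26.2% to 48.3% of the summed TPM of the 7 genes in the libraries labelled Il17ra-/- and 65.3% to 72.6% in those labelled WT.

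**Figure D2:**
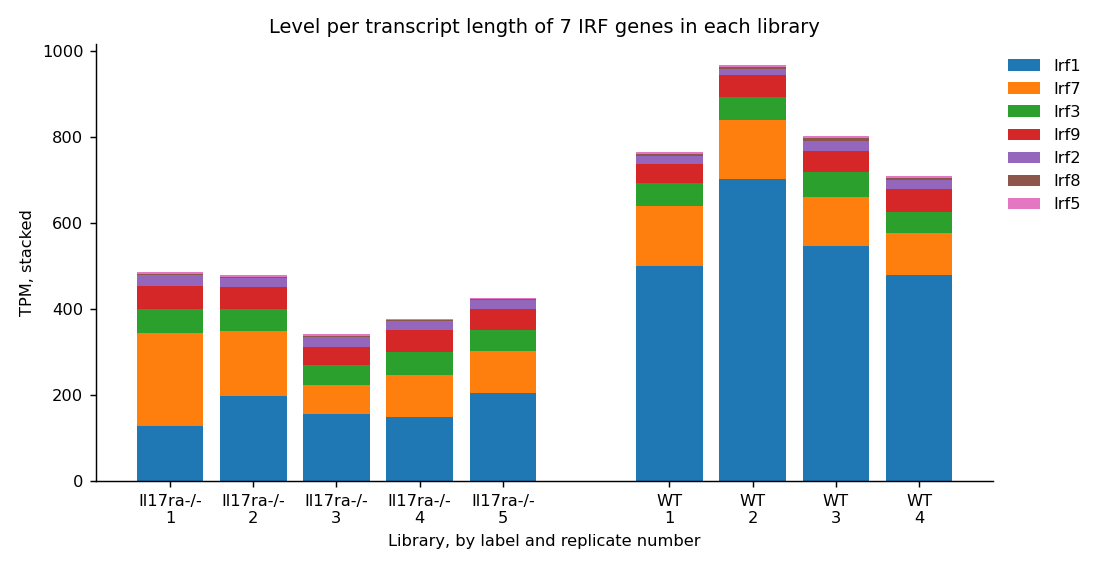
Stacked TPM (linear axis from 0) of 7 IRF genes in each library, the 5 libraries labelled Il17ra-/- left of the 4 labelled WT. The sums are 342 to 487 TPM in the libraries labelled Il17ra-/- and 709 to 969 TPM in those labelled WT, and the Irf1 segment carries most of the difference.

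Irf3, the constitutively made factor of the antiviral sensing pathway, varied little. Exons of Irf3 share 88 bp, 2.6% of their length, with Bcl2l12 on the other strand. The gene (ENSMUSG00000003184.15) is on chromosome 7 from 44997648 to 45002848. It had 50.8, 47.8, 41.7, 49.9 and 43.9 CPM in the libraries labelled Il17ra-/-, against 50.9, 59.7, 55.6 and 45.2 CPM in those labelled WT. The groups overlapped, and the log2 fold change was -0.17 (95% confidence interval -0.42 to 0.07, edgeR adjusted p = 0.475).

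Irf9, the DNA-binding part of ISGF3, behaved in the same way. Exons of Irf9 share 123 bp, 2.3% of their length, with Rnf31 on the same strand. The gene (ENSMUSG00000002325.15) is on chromosome 14 from 55603571 to 55610030. It had 76.1, 75.2, 58.0, 72.4 and 68.0 CPM in the libraries labelled Il17ra-/-, against 69.8, 90.7, 71.5 and 77.6 CPM in those labelled WT. The highest value was in WT replicate 2 and the rest of the groups overlapped, with a log2 fold change of -0.15 (95% confidence interval -0.40 to 0.10, edgeR adjusted p = 0.578).

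Irf7, itself an interferon-stimulated gene, was abundant and varied among libraries of the same label. Exons of Irf7 share 45 bp, 1.2% of their length, with Phrf1 on the other strand. The gene (ENSMUSG00000025498.15) is on chromosome 7 from 141262706 to 141266481 on the minus strand. It had 218, 152, 66.6, 95.4 and 96.1 CPM in the libraries labelled Il17ra-/-, against 150, 171, 116 and 103 CPM in those labelled WT. The highest and the lowest of the 9 values both belonged to libraries labelled Il17ra-/-, replicates 1 and 3, and the coefficient of variation was 47.8% there and 22.8% in the libraries labelled WT. The log2 fold change was -0.11 (95% confidence interval -0.71 to 0.50, edgeR adjusted p = 0.889).

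The highest and the lowest level of Irf7 fell in the same libraries as those of the ISGF3 target list. The 26 genes of that list summed to 1784, 1281, 1050, 1285 and 1215 CPM in the libraries labelled Il17ra-/-, against 1380, 1686, 1197 and 1188 CPM in those labelled WT. Both Irf7 and this sum were highest in Il17ra-/- replicate 1, which lay apart on the second principal component, and lowest in Il17ra-/- replicate 3. In between the order differed. Il17ra-/- replicate 4 had 95.4 CPM of Irf7 beside a sum of 1285 CPM, and Il17ra-/- replicate 2 had 152 CPM beside 1281 CPM. Irf1 was lowest in Il17ra-/- replicate 1.

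**Figure D3:**
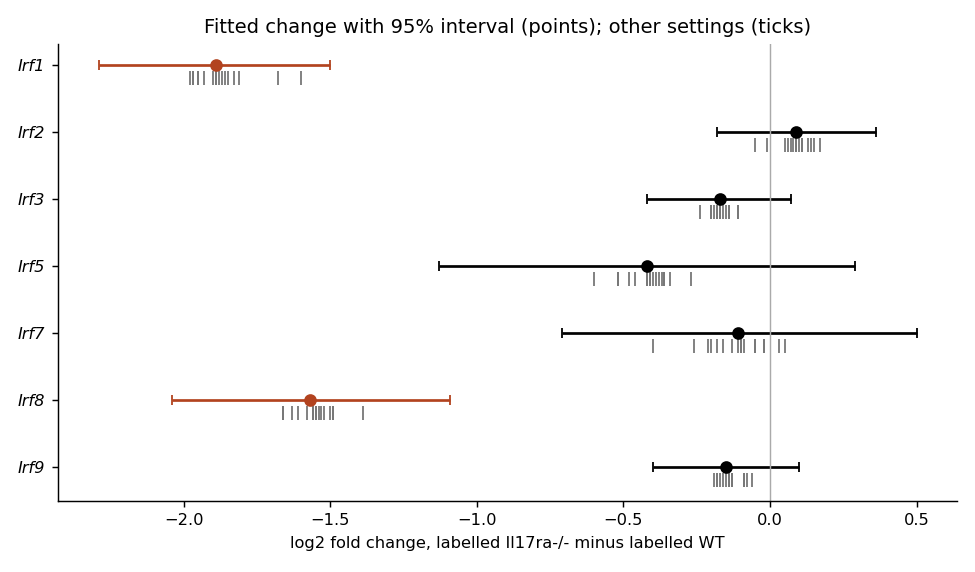
Log2 fold changes (labelled Il17ra-/- minus labelled WT) of 7 IRF genes with 95% confidence intervals, and grey ticks for the same value under the other processing settings. The ticks of Irf1 run from -1.98 to -1.60 and those of Irf8 from -1.66 to -1.39, and the intervals of the other 5 genes include 0.

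Ordered by mean TPM, the libraries labelled Il17ra-/- had Irf1 at 168 ± 33.5 TPM (SD, n = 5), Irf7 at 126 ± 59.4 TPM, Irf3 at 51.8 ± 3.84 TPM, Irf9 at 49.5 ± 4.60 TPM, Irf2 at 22.0 ± 1.75 TPM, Irf5 at 3.55 ± 1.27 TPM and Irf8 at 2.06 ± 0.380 TPM. In those labelled WT the order was Irf1 at 558 ± 101 TPM (SD, n = 4), Irf7 at 123 ± 19.7 TPM, Irf3 at 53.0 ± 4.67 TPM, Irf9 at 49.6 ± 2.91 TPM, Irf2 at 19.0 ± 4.39 TPM, Irf8 at 5.48 ± 0.969 TPM and Irf5 at 4.32 ± 0.663 TPM. Irf1 and Irf7 overlapped in the libraries labelled Il17ra-/- and were separate in those labelled WT. Irf3 and Irf9 overlapped in both groups, as did Irf5 and Irf8, which changed places between the groups. TPM divides by all annotated exon bases of a gene, which for Irf7 form 1 block of 3776 bp covering the whole gene. The order of genes and their shares of the summed TPM therefore depend on the annotation.

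The other genes of the pathway came from 7 lists of 105 genes, chosen for their known roles but with earlier results of these libraries in view, and 93 of them were tested. Of these 93, 6 were called, all lower, where 3.06% of all tested genes were called and 1.71% were called lower. Of the interferons and their receptors none of 5 tested genes passed, with Ifngr1 at a log2 fold change of -0.24 (edgeR adjusted p = 0.253) and Ifnar2 at -0.13 (adjusted p = 0.572). Ifng stayed below 0.5 CPM in every library and Ifnb1, the interferon beta gene, averaged 0.223 ± 0.340 CPM in the libraries labelled Il17ra-/- and 0.237 ± 0.454 CPM in those labelled WT. None of the 11 JAK, STAT and feedback genes passed (median log2 fold change -0.19, against 0.00 for all tested genes). Socs1, an inhibitor of JAK kinases, had a log2 fold change of -1.01 (edgeR adjusted p = 0.0617) and Socs3 one of -0.34 (adjusted p = 0.207). For Socs1 the log2 fold change was -0.54 without WT replicate 2 and -0.48 without WT replicate 2 and Il17ra-/- replicate 1. Under 4 of 17 other settings Socs1 was called lower, with adjusted p-values of 0.00535 by DESeq2, 0.00655 with no filter on low counts, 0.0169 with the replicate number as a block and 0.0365 without WT replicate 1.

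Upstream of the IRFs, 1 gene passed. Myd88, the adaptor through which Toll-like and interleukin-1 receptors signal and which binds several IRF proteins, had 69.8, 82.3, 65.9, 72.2 and 78.3 CPM in the libraries labelled Il17ra-/-, against 134, 171, 129 and 118 CPM in those labelled WT. The groups did not overlap, and the gene fell by 0.91 on the log2 scale (SE 0.12, edgeR adjusted p = 8.94e-04). Without WT replicate 2 and Il17ra-/- replicate 1 its log2 fold change was -0.77. The other 12 tested adaptors and kinases did not pass, among them Tbk1, the kinase of IRF3, with a log2 fold change of -0.21 (edgeR adjusted p = 0.46), and the list's median was -0.02. None of 8 tested sensors passed (median 0.21), the smallest p belonging to Ifih1, the RNA sensor MDA5, with 0.56 (edgeR adjusted p = 0.0579; called higher under 3 of 17 other settings, at 0.012 by DESeq2, 0.0241 with no filter and 0.0292 with library totals, with a log2 fold change of 0.35 without WT replicate 2 and Il17ra-/- replicate 1), followed by Tlr4 with 0.49 (adjusted p = 0.125). None of 8 tested IRF partners and regulators passed (median 0.09), with Irf2bp1, a corepressor that binds IRF2, at 0.40 (edgeR adjusted p = 0.126) and Irf2bpl at 0.31 (adjusted p = 0.293).

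Downstream, 4 of 22 tested target genes of IRF1 and the GAS element fell and none rose, beside 1.71% of all tested genes called lower and 1.35% called higher, and the list's median of -0.10 lay near that of all tested genes. Cxcl10 and Cxcl9, which encode chemokines for T cells, had log2 fold changes of -2.38 and -1.41 (edgeR adjusted p = 0.00131 and 0.016). Without WT replicate 2 and Il17ra-/- replicate 1 these were -1.87 and -1.25. Without Il17ra-/- replicate 3 the call of Cxcl9 was lost (-1.33, adjusted p = 0.0545). The immunity-related GTPase gene Iigp1 had 107, 76.4, 69.7, 68.4 and 84.5 CPM in the libraries labelled Il17ra-/-, against 191, 213, 178 and 152 CPM in those labelled WT. Its log2 fold change was -1.18 and that of Irgm1, of the same family, -0.99 (edgeR adjusted p = 5.34e-04 and 0.00177). These GTPases belong to a family with near-identical copies, among which reads can be lost or shared, so their values are uncertain. The 18 other tested targets did not pass, including the antigen-processing genes Psmb8 (-0.12), Psmb9 (-0.11), Tap1 (-0.26) and Nlrc5 (0.35) and the guanylate-binding protein gene Gbp2 (-0.46, adjusted p = 0.0962).

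Of the 26 ISGF3 target genes, which respond to type I interferon, 1 was called, and 12 had a negative log2 fold change, with a median of 0.04. The call was Mx2, an antiviral GTPase gene, at -1.24 (edgeR adjusted p = 0.0499), whose groups overlapped, and it was lost under 12 of 17 other settings, at -0.79 without WT replicate 2. Among those that did not pass, the log2 fold change was -0.37 for Isg15, -0.47 for Ifit1 and 0.22 for Oasl2.

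**Figure D4:**
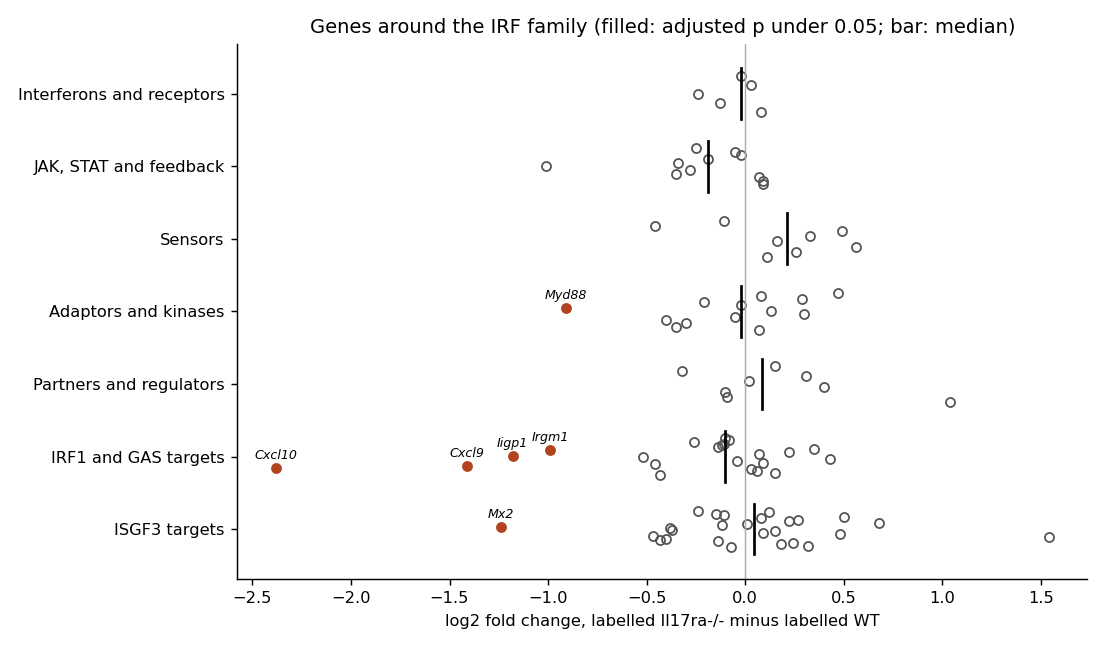
Log2 fold changes (labelled Il17ra-/- minus labelled WT) of tested genes in 7 pathway lists, with filled points for genes at an adjusted p under 0.05 and a bar at each list's median. The 6 filled points, Cxcl10, Cxcl9, Mx2, Iigp1, Irgm1 and Myd88, all lie left of 0.

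The genes whose levels most resembled each member's over the 9 libraries were sought by Pearson correlation of log2(CPM + 1) among 12490 genes. This is a description across libraries that differ in depth and label. For Irf1 they were Myd88 (0.990), Ier5 (0.985) and Lta4h (0.983). Myd88 and Ier5 were themselves called lower (log2 fold changes -0.91 and -1.37) and Lta4h was not (-0.27), so these correlations also carry the difference between the labels. For Irf7 they were H2-T23 (0.969), Zbp1 (0.964) and Trafd1 (0.950), none of which was called between the groups. The closest to Irf2 was Adam10 (0.976), to Irf3 Cfap36 (0.965) and to Irf9 Ube2w (0.953). Irf5 and Irf8 were left out of this search for a mean under 10 CPM.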

How the data were processed

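Muscle RNA went into TruSeq RNA v2 libraries, which do not mark strand, per the labels' protocols. The submitters' processing notes name STAR as the aligner and no version. What the authors deposited are counts of read pairs per gene, made with featureCounts 1.6.0 over exons of GENCODE M21 per the file headers, whose command sets no option for strand, multiple alignments or overlapping genes. Gene lengths were deposited in the same files.

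Counts were filtered with filterByExpr (16039 genes), scaled by TMM factors and compared with edgeR 4.0.16 (quasi-likelihood test, two-sided, R 4.3.3) over all 9 libraries, with label as the only term and Benjamini-Hochberg adjustment over all tested genes. The SE is the size of the log2 fold change divided by the root of the F statistic, and intervals use the test's t distribution. The procedure was tested on simulated data. limma 3.58.1, DESeq2 1.42.0, other scalings, no filter, a replicate block and leaving out libraries were alternatives.

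The members and the 14 gene lists were chosen with earlier results of these data known. Named genes are the members, Il17ra, up to 5 called genes of each list or the 2 with the smallest p, and overlapping neighbours. Other genes named were chosen after their values were seen. Some family and pathway genes are not reported here.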

Additional observations from a re-analysis of the deposited data

Results flagged for a closer look

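A library stood apart from the others of its group, by Dixon's criterion, in 3 of the 66 groups examined, where chance gives about 1 in 20. Socs1 had 341 CPM in WT replicate 2, against 120 to 152 CPM in the other 3. Tnnt1, the slow troponin T gene among the muscle markers, had 22.4 CPM in Il17ra-/- replicate 5, against 48.2 to 52.3 CPM in the others. Il17ra had 284 CPM in Il17ra-/- replicate 4, against 181 to 200 CPM in the others.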

How the results depend on the processing

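Irf1 and Irf8 were called lower under all 17 alternatives, and no other member was called under any of them. Their highest edgeR adjusted p-values were 0.00114 and 0.0239, the second with the replicate number as a block. Leaving out 1 library gave -1.98 to -1.68 for Irf1, -1.66 to -1.39 for Irf8, -0.01 to 0.17 for Irf2 and -0.40 to 0.05 for Irf7. Uncalled members changed sign in places: Irf2 was -0.01 without WT replicate 2 and -0.05 without WT replicate 2 and Il17ra-/- replicate 1 together (an alternative chosen after seeing the data), and Irf7 was 0.03 without WT replicate 2 and 0.05 without Il17ra-/- replicate 3. DESeq2 called 1055 genes in all and 11 pathway genes. Leaving out 1 library gave 275 to 567 calls in all and 4 to 6 pathway genes. The counts were 323 without Il17ra-/- replicate 1, 275 without Il17ra-/- replicate 3 and 567 without WT replicate 2. Fewer samples enter these fits, and their part in the changed counts was not tested. With stricter motifs (TTCCNGGAA, and an IRF element with 1 more base) the members holding a GAS or IRF element fell to 0 and 0. The cause of the changes between fits was not tested. With the replicate number as a block, 366 genes were called. That fit also left out Il17ra-/- replicate 5, whose number no library labelled WT shares, so it differs from the main fit in more than the block. The deviations of same-numbered libraries correlated at -0.017, 0.005, 0.056 and 0.036, and those of other pairs at -0.04 to 0.036. These values cannot show whether the numbers pair the libraries, and the labels do not say. Irf5 rests on 57 to 188 read pairs per library and Irf8 on 142 to 462.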
